A study of Mus musculus with 2 samples.

Results

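CpG-poor intergenic TET2 peaks, called members here, are regions listed as peaks for the methylcytosine dioxygenase TET2 that lie away from genes in sequence poor in CpG or in GC. They were taken from the deposited peak list by position and sequence alone. A peak was included when it lay on an autosome, its midpoint was over 3 kb from every GENCODE M21 transcription start site (TSS) and outside every gene body, under 80% of its bases were soft-masked as repeats in the genome, and its observed-to-expected CpG ratio was under 0.6 or its GC content under 50%. The rule was met by 1867 of the 14103 deposited peaks, or 13.2% of the list. Of these, 981 met both limits on base composition, 816 met only the limit on the CpG ratio and 70 only the limit on GC. The strength of a peak was not used to choose it. Among peaks with GC of 50% or more, the CpG ratios nearest to the limit were 0.599 just inside (−log10 p of 7.63) and 0.6003 just outside (−log10 p of 10.97).

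The study profiled TET2 by chromatin immunoprecipitation and sequencing (ChIP-seq) in primary mouse adipocytes. Stem cells were taken from the stromal fraction of inguinal white fat, grown with basic fibroblast growth factor to passage 3, and turned into adipocytes with IBMX, dexamethasone and insulin. The cells were fixed with formaldehyde and sonicated, and 1 TET2 library was compared with 1 input library of sonicated DNA from the same kind of culture; no genotype or second treatment was compared. The deposited values are the interval of each peak and the −log10 p of its enrichment over input. The study states a volume of sequence data, but the list holds no read totals, so the number of reads behind each peak is unknown here, and with 1 TET2 library there are no replicates. Intervals are exact 95% binomial or Poisson intervals and cover counting error only, and no p-value was computed over peaks.

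TET enzymes oxidise methylated cytosine, mostly at CpG dinucleotides, and so start the removal of DNA methylation. TET2 has lost the CXXC domain by which its relatives hold unmethylated CpG-rich DNA, and it is thought to reach chromatin through partner proteins. Outside promoters it is best known for acting at distal enhancers, which are often poor in CpG and lie in introns or between genes. Mouse intergenic DNA also holds many young copies of LINE-1, a retrotransposon whose promoter is built of units repeated in tandem in front of a long reading frame, and many short tandem repeats. No expression or methylation was measured in these libraries, so no gene below is called a target.

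Many members shared sequence with each other, and the shared segments are shown first since several results rest on them. Each is a 150-base segment of a member that the largest number of remaining members matched over at least 80 bases, with CpG dinucleotides in capitals. Family 1 is read from chr13:27983369-27983518, family 2 from chr4:63922085-63922234, family 3 from chr3:29719639-29719788 and family 5 from chr13:3395022-3395171 (GRCm38, plus strand). They hold 6, 10, 9 and 7 CpGs, and their GC content is 59.3%, 68.0%, 66.7% and 60.7%.
family 1: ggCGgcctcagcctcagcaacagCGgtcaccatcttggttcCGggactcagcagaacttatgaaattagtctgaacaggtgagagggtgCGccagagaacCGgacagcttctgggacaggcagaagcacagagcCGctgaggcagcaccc
family 2: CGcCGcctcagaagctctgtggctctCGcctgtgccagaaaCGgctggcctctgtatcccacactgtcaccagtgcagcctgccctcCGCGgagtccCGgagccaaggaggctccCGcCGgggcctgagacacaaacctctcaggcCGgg
family 3: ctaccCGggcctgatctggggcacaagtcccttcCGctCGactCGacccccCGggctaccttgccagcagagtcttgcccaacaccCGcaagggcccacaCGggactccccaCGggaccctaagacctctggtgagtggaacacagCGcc
family 5: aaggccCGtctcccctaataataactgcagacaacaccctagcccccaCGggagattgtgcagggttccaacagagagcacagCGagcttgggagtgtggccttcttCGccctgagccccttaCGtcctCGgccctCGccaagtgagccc

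The next 5 sequences come from members with fewer than 5 matches in the genome, picked for the genes or enhancer near them. The GC content of these whole members was 56.1% to 62.9%, above the upper quartile of 55.7% for all members. Members with fewer than 5 matches had a median GC of 46.7%, so the sequences do not show the range of the class. The first 3 below lie within 100 kb of genes of adipocyte differentiation, fat storage and insulin action, and the other 2 inside a known Isl1 enhancer and near a phosphatase gene that acts on the leptin receptor pathway. Each is the central 300 bases of the member on the plus strand of GRCm38, with CpGs in capitals: chr2:167764988-167765287 (Cebpb), chr3:10162938-10163237 (Fabp4), chr8:10978491-10978790 (Irs2), chr13:116293838-116294137 (Isl1) and chr2:167920077-167920376 (Ptpn1). The number of CpGs in these 300 bases was 7, 11, 19, 20 and 10, in that order.
Cebpb member: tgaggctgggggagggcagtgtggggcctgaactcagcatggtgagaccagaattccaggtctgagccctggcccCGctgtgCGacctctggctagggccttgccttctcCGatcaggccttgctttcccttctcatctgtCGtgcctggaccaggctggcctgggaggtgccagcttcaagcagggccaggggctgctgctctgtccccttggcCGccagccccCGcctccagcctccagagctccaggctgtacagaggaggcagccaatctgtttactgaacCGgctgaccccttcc
Fabp4 member: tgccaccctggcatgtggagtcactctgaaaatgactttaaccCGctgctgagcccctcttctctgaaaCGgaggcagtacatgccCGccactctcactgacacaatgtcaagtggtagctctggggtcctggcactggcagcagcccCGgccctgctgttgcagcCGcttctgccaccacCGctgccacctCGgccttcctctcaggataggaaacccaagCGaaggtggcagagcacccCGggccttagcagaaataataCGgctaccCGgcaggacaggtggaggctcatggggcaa
Irs2 member: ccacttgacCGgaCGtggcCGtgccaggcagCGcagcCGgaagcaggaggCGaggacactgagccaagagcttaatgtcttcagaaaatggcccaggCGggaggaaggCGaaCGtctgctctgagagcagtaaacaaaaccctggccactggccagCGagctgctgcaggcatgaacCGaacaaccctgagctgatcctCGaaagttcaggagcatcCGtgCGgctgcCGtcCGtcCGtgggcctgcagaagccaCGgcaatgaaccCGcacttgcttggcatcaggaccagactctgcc
Isl1 member: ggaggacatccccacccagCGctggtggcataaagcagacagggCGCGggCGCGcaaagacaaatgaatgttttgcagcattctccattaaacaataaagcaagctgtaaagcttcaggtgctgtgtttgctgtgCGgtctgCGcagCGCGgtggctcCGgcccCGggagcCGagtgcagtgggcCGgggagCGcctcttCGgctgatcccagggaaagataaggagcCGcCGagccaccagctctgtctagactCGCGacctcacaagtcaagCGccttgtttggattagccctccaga
Ptpn1 member: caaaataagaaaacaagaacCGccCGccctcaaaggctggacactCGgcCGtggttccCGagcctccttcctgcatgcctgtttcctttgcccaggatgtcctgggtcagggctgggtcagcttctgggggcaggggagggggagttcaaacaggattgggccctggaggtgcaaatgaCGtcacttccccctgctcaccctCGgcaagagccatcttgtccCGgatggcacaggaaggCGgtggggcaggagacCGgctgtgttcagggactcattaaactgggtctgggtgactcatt

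A different kind of member was made of short units repeated in tandem. The member at chr7:74182709-74183008, nearest to Slco3a1, had no CpG in its central 300 bases. That at chr14:101434001-101434300, near Tbc1d4, held 3 runs of at least 6 CA dinucleotides, which are in capitals.
Slco3a1 member: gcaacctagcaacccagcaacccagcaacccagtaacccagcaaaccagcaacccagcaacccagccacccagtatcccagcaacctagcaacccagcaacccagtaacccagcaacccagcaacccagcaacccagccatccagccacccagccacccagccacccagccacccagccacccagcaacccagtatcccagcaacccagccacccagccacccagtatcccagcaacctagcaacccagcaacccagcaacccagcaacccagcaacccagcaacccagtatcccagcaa
Tbc1d4 member: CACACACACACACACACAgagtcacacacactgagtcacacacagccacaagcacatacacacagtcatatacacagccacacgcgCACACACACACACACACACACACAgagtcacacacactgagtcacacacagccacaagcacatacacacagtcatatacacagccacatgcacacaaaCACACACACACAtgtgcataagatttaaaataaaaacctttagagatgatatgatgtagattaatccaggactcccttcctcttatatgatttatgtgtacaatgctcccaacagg

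The class as a whole was of moderate strength. The −log10 p of the 1867 members ranged from 3.07 to 176, with a median of 6.06 (95% interval 5.91 to 6.21) and quartiles of 5.13 and 7.34. The median was 6.04 for the 1705 peaks in introns, 6.06 for the 1400 intergenic peaks with 80% or more masked bases (called repeat-dominated here), 6.90 for the 237 intergenic peaks that met neither limit on composition (CpG-rich), and 6.80 for the 6941 peaks within 3 kb of a TSS. A −log10 p of at least 10 was reached by 112 members, or 6.0% (4.96 to 7.17%), against 8.66% of all deposited peaks. The share was 5.57% in introns (4.53 to 6.77%), 4.57% among repeat-dominated peaks (3.54 to 5.80%) and 10.1% among CpG-rich intergenic peaks (6.597 to 14.7%). A −log10 p of at least 5 was reached by 79.8% of members (77.9 to 81.6%). The peak-calling threshold in the study's methods is stricter than the lowest values of the list, and this difference was not resolved here. The values were coarse: the 1867 members had 170 distinct −log10 p values, and the 5 commonest covered 54.4% of them. The interval was 375 bp, the shortest in the list, for 43.97% of members (41.7 to 46.3%), against 23.4% of peaks within 3 kb of a TSS (22.4 to 24.4%).

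Although the rule asks for few CpGs or low GC, the members were richer in GC than the sequence they were drawn from. GC is part of the rule, so these values are a description, set beside sequence chosen by the same rule. The autosomes were cut into windows of 389 bp, the median length of a member. Whole windows that met the rule and held no unknown base were kept as eligible sequence, which gave 2338494 windows or 910 Mb. Median GC was 48.4% in members (quartiles 41.98 and 55.7%) and 40.6% in the 2334205 windows that no peak touched (quartiles 35.7 and 45.2%). Introns gave a median of 50.7%, and CpG-rich intergenic peaks 59.4%. Over all eligible sequence there were 2.05 members per Mb (95% Poisson interval 1.96 to 2.15). The density rose in each successive class of GC, from 0.367 per Mb (0.209 to 0.595) at 25 to 30% GC to 1.26 (1.13 to 1.41) at 40 to 45%, 5.27 (4.70 to 5.89) at 50 to 55% and 28.9 (25.8 to 32.4) at 55 to 60%. It was 211 (181 to 244) at 60 to 65%, from 178 members and 0.844 Mb of windows. Members were classed by the GC of their own interval and windows by that of fixed positions. A window is therefore seldom centred on a local rise in GC, and how far this raises the density in GC-rich classes was not tested.

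**Figure D1:**
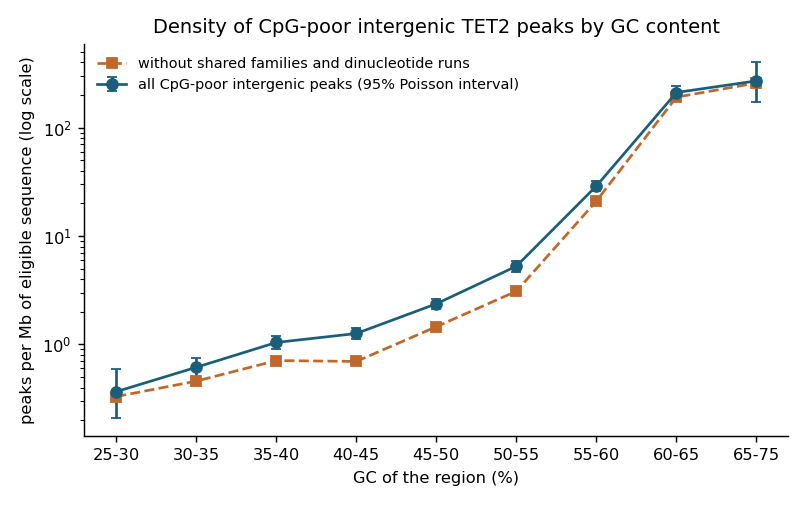
Number of CpG-poor intergenic TET2 peaks per Mb of sequence that meets the same rule (y axis, log scale), by GC content of the region (x axis, %). Circles show all 1867 members with 95% Poisson intervals and squares the members and windows left once the shared families and dinucleotide runs are taken out; both rise from under 1 per Mb below 35% GC to over 100 per Mb above 60%.

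GC was raised at the peak itself. Mean GC of members without a shared family, tandem repeat or run was 51.0% in the 100 bp at the midpoint, 44.6% at 300 bp to the left and 42.5% at 600 bp to the left. Surrounding GC, over 100 kb, had a median of 41.2% for members and 40.5% for windows. Density was 1.69 per Mb (1.51 to 1.88) where the surrounding 100 kb had 36 to 38% GC, 1.996 (1.73 to 2.29) at 44 to 46% and 4.0 (3.45 to 4.61) above 48%. Among regions with 55% GC or more, the order was the other way: 110.0 members per Mb (79.0 to 149) in surroundings under 38% GC and 26.1 (22.5 to 30.1) in those over 46%. With shared families and dinucleotide runs left out these values were 37.1 (19.2 to 64.8, from 12 members) and 25.9 (22.3 to 30.02), whose intervals overlapped. The classes between them, at 66.0 (52.2 to 82.4) in surroundings of 38 to 42% GC and 47.5 (39.3 to 57.0) at 42 to 46%, lay above the most GC-rich surroundings.

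**Figure D2:**
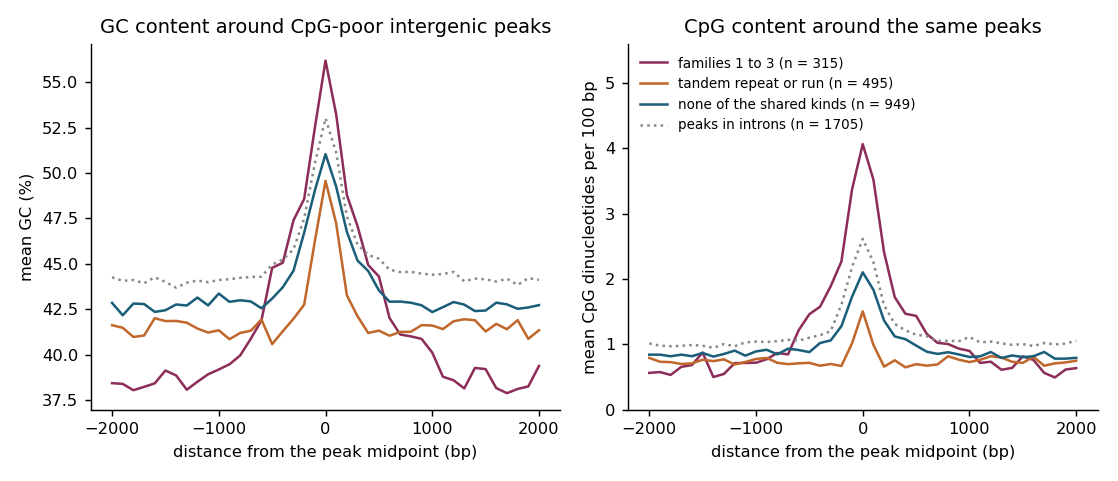
Mean GC content in % (left) and mean number of CpG dinucleotides per 100 bp (right) in 100-bp bins, by distance in bp from the peak midpoint, for members with a copy of families 1 to 3, with a tandem repeat or run, with none of the shared kinds, and for peaks in introns. Each group has a peak of GC within about 500 bp of the midpoint, and the highest central value is 56.2% for families 1 to 3.

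Members were also richer in CpG than windows of like GC, from 45% GC upward. The median was 1.07 CpGs per 100 bp in the 391 members with 45 to 50% GC (quartiles 0.533 and 2.64) and 0.771 in windows (quartiles 0.514 and 1.29), and 2.67 against 1.03 at 50 to 55% GC. In members with no shared family, tandem repeat or run the median was 0.8 at 45 to 50% GC, near that of windows, and 2.14 at 50 to 55%. Below 40% GC members and windows had almost the same median, 0.267 and 0.257. The rule admits the class of 45 to 50% GC at any CpG content. There density was 27.8 members per Mb (21.5 to 35.5) at 3 or more CpGs per 100 bp and 1.15 (0.896 to 1.44) at 1 to 2. Density at under 1 CpG per 100 bp was 2.15 (1.85 to 2.49), above that of the next class, so the relation was not steadily upward. Without shared families and dinucleotide runs the values for under 1, for 1 to 2 and for 3 or more CpGs were 1.66, 0.835 and 7.83 per Mb. Still, 627 members (33.6%, 31.4 to 35.8%) had 2 CpGs or fewer, against 58.7% of windows and 24.8% of peaks in introns, and 178 (9.53%, 8.24 to 10.96%) had none at all. The share with none was 15.7% in windows and 5.28% (4.27 to 6.45%) among peaks in introns.

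The −log10 p was higher above 50% GC than below it. The median was 5.13 in each class below 50% GC, 6.36 at 50 to 55%, 7.16 at 55 to 60% and 7.07 at 60% and over. A −log10 p of at least 10 was reached by 2.35% of the 341 members under 40% GC (1.02 to 4.57%) and by 10.0% of the 309 members at 50 to 55% (6.92 to 13.9%), with no further rise at 55 to 60% (9.80%) or 60% and over (9.45%). Of the 112 members at this level 80 had GC of 50% or more.

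**Figure D3:**
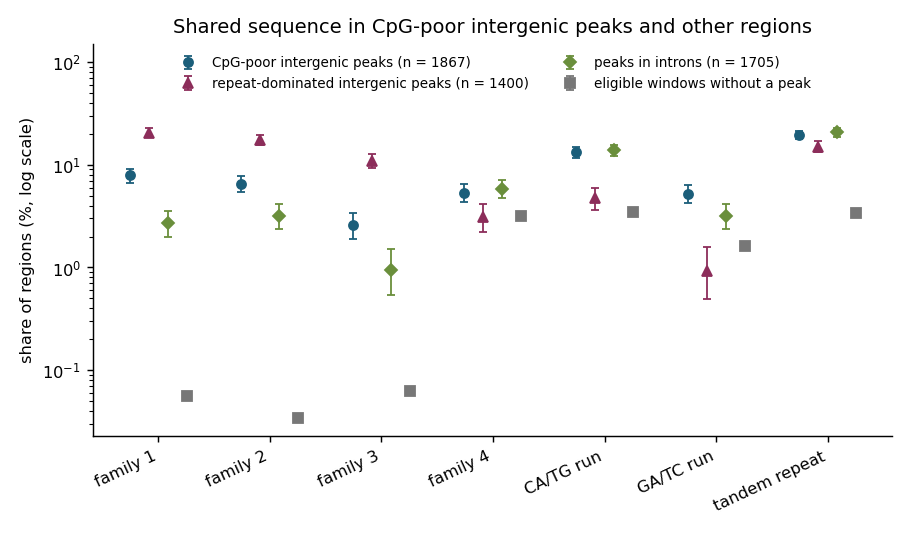
Share of regions in % (y axis, log scale) that hold a copy of families 1 to 4, a run of CA or TG, a run of GA or TC, or a tandem repeat (x axis), for CpG-poor intergenic peaks, repeat-dominated intergenic peaks, peaks in introns and eligible windows without a peak. Bars are 95% binomial intervals, which for windows are smaller than the symbols; for families 1 to 3 the windows lie at 0.0628% or lower and every group of peaks at 0.938% or higher.

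Of the 1867 members 315 (16.9%, 15.2 to 18.6%) held a copy of family 1, 2 or 3, against 0.142% of windows without a peak. The segments were chosen from the members themselves, so these shares are a description. Family 1 was in 147 members (7.87%, 6.69 to 9.19%), family 2 in 122 (6.53%, 5.46 to 7.75%) and family 3 in 48 (2.57%, 1.90 to 3.39%), while windows held them at 0.0566%, 0.0339% and 0.0628%. Only 2 members held more than 1 of the 3 families. The share was 6.74% in introns (5.6 to 8.04%), 18.6% among CpG-rich intergenic peaks (13.8 to 24.1%) and 48.6% among repeat-dominated intergenic peaks (45.9 to 51.2%). The 80% limit on masked bases in the rule thus splits the peaks that carry these families between classes.

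Many copies of the 3 families had another copy close by, and many lay beside a long reading frame. Family 1 had 13770 copies in the genome, and 7735 neighbours on the same strand lay under 600 bp apart, at a median spacing of 212 bp (quartiles 206 and 212 bp). Family 2 had 5300 copies and 1714 such spacings, with a median of 205 bp (203 and 206 bp), and family 3 had 16335 copies and 10005 spacings, with a median of 200 bp (193 and 208 bp). Within 8 kb downstream on the strand of the copy, 47.8% of family 1 and 36.9% of family 3 copies had a reading frame of at least 1000 codons without a stop, against at most 1.02% and 0.471% on the other sides and strands. For family 2, whose printed strand runs the other way, 23.5% had such a frame upstream on the opposite strand. No repeat annotation was used, so the families keep their numbers here. Not every copy was in a peak: a deposited peak overlapped 9.06% of family 1 copies (8.59 to 9.56%), 15.1% of family 2 (14.2 to 16.1%) and 3.78% of family 3 (3.50 to 4.09%). Copies in peaks had the long reading frame less often than those outside, at 25.5% against 49.98% for family 1 and 20.4% against 37.5% for family 3.

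Members with these 3 families had higher values than those with tandem repeats or runs and those with no family, tandem repeat or run. Their median −log10 p was 7.16 (6.32 to 7.34), and 33 of them reached 10, or 10.5% (7.32 to 14.4%). That interval includes the 8.66% of all deposited peaks and the 10.0% of all members with 50 to 55% GC. Members with these 3 families had a median of 14 CpGs and 53.0% GC. The surrounding 100 kb had a median GC of 38.9%, against 42.4% for members with no family, tandem repeat or run. At the midpoint they held 4.07 CpGs per 100 bp, and 0.565 at 2 kb to the left. They had a median of 1001 matches in the genome at 90% identity, with at most 50 kept for each chromosome. How reads that fit several places were treated is not given in the sources used here, and the part of such reads in these values was not tested.

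The other families were smaller or less particular. Family 5 had 70 copies in the genome, of which a peak overlapped 23 (32.9%, 22.1 to 45.1%). It was in 14 members, with a median GC of 62.1% and a median −log10 p of 7.35. Family 4 had 249061 copies and was in 5.36% of members (4.38 to 6.48%) and 3.17% of windows. The 94 members with family 4 and none of the others had a median −log10 p of 5.13, and none reached 10 (upper bound 3.85%).

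Tandem repeats formed the larger group. In 365 members (19.6%, 17.8 to 21.4%) a stretch of 100 bases matched the sequence 2 to 200 bp further on at 80 or more positions. The share was 3.40% in windows (3.29 to 3.50%), and 6.56% when the windows were weighted to the GC of the members in classes of 5 points. Introns were alike at 20.7% (18.8 to 22.7%), and peaks within 3 kb of a TSS had 3.26% (2.85 to 3.701%). Units of 2 to 6 bp made up 182 of these members, units of 7 to 20 bp 77 and longer units 106. In windows the short units had the larger part, 74.8%, against 49.9% in members. The 106 members with units over 20 bp had a median GC of 57.7%, and 9.43% of them reached a −log10 p of 10 (4.62 to 16.7%). This was near the 9.80% of all members with 55 to 60% GC and the 8.66% of all deposited peaks.

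Runs of at least 6 copies of CA or TG lay within 100 bp of the midpoint in 246 members (13.2%, 11.7 to 14.8%), as in the Tbc1d4 sequence above. They were in 3.50% of windows, and in 2.84% of windows 1 kb to either side of the members. Runs of GA or TC were in 98 members (5.25%, 4.28 to 6.36%) and 1.61% of windows. Like members with family 4, and unlike those with families 1 to 3, members with either kind of run were weak and poor in CpG, with a median −log10 p of 5.13, a median of 2 CpGs and a median GC of 42.6%. The share with a CA or TG run was 13.8% in introns (12.2 to 15.5%) and 1.27% near a TSS (1.02 to 1.56%).

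Once families, tandem repeats and runs were set aside, 949 members remained (50.8%). Their median −log10 p was 5.89 (5.42 to 6.06), their median GC 48.7% and their median number of CpGs 5. At most 4 matches in the genome, itself included, were found for 831 of them. The others had more, so this group is not free of sequence found elsewhere. It holds the 4 strongest members of the class, with 9 to 1050 matches when at most 50 a chromosome were kept. In the whole class 1245 members (66.7%, 64.5 to 68.8%) had no match of at least 100 bp and 90% identity other than themselves, against 83.8% (82.3 to 85.3%) of every 1000th window. Low-complexity sequence was masked in this search by the program's default, so simple repeats can count as having a single match. Of members with a tandem repeat or run, 92.5% had fewer than 5 matches, the Slco3a1 member with 1 among them. At least 100 matches were found for 21.7% of members (19.9 to 23.7%) and 5.61% of these windows (4.71 to 6.62%). A −log10 p of 10 was reached by 4.18% of members with a single match (3.13 to 5.44%) and 9.61% of those with 100 or more (6.92 to 12.9%). For all members the share was 6.0%, and for all deposited peaks 8.66%.

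**Figure D4:**
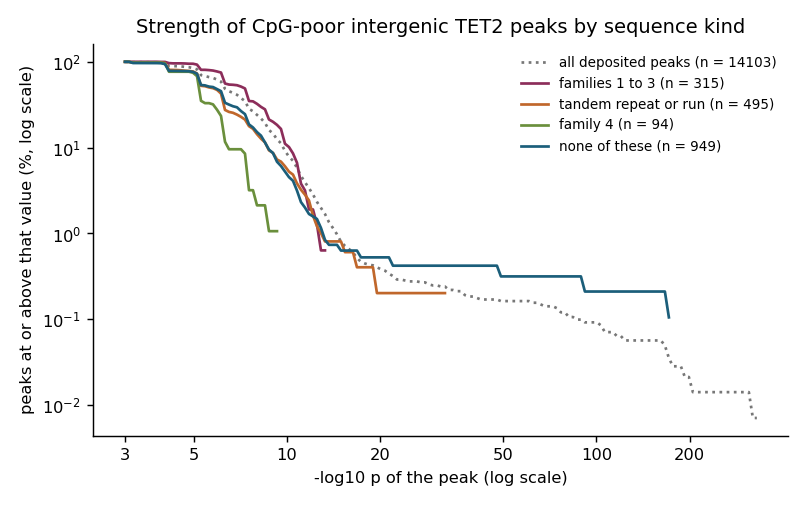
Percentage of peaks at or above a given −log10 p (y axis, log scale), by −log10 p (x axis, log scale), for all deposited peaks and for members with families 1 to 3, a tandem repeat or run, family 4, or none of these. Members with families 1 to 3 lie at or above the other 3 kinds up to a −log10 p of 10, where 10.5% remain, and the line of members with none of these goes on to 176.

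The strongest members stood far from the rest, and most were not unique in the genome. Only 6 members had a −log10 p over 20. The highest, 176, was at chr3:5860195-5860985, nearest to the coding gene Gm8797; it was a member by its GC of 49.1% and held 45 CpGs. Sequence found elsewhere covered 80.2% of it, with matches on 21 chromosomes. The next, 170 at chr12:3109656-3110341 near Rab10, lay 109997 bp from the first assembled base of its chromosome, and 97.4% of it was found elsewhere, including in 13 other deposited peaks with −log10 p of up to 335. The third was 91.8 at chr15:75086433-75087192, near Ly6c2, a cell surface gene of a family with many close copies, and 99.9% of it was found elsewhere. The fourth, 48.2 at chr18:68691864-68692480 near the adrenocorticotropin receptor gene Mc2r, was covered to 73.1%, with matches in 4 other peaks. By contrast, chr4:118547304-118548884, upstream of Tmem125 by 4050 bp, had a −log10 p of 32.4 and 50 matches found, all within itself. At most 50 matches a chromosome were kept, so other copies on chromosome 4 could be missed. This member repeated a unit of 133 bp. The member at chr10:125701136-125701624 near Lrig3, with 16.8, was built the same way from a 37-bp unit. The others of the 10 strongest had as nearest coding gene Sfi1 (21.7), A630089N07Rik (19.0), Kcna4 (17.3) and Nnt (15.1), the last the mitochondrial NAD(P) transhydrogenase. Their distances were 34250, 24951, 446102 and 150215 bp. Gm8797, Rab10, Mc2r and Lrig3 were 109784, 199971, 262852 and 264788 bp from their members. Most of these nearest genes thus lay over 100 kb away.

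Among members with fewer than 5 matches the highest −log10 p were those of chr11:3101037-3102478 near Sfi1, whose midpoint lay 1756 bp from the first assembled base, chr16:98107123-98107680 near A630089N07Rik and chr13:119258431-119259043 near Nnt. The fourth was chr3:10162796-10163378, with a −log10 p of 14.9, whose nearest coding gene was the myelin lipid carrier Pmp2. It had 60.5% GC and 19 CpGs. The other 6 lay nearest to Gm9972 (13.4), Gm12887 (13.2), Slco3a1 (13.2), a membrane transporter gene, St7 (12.7), Ap3b1 (12.7), which encodes a subunit of a vesicle adaptor, and Vmn1r2 (12.6). Of these genes Gm12887 was 401086 bp away and Slco3a1 164373 bp, and the rest at most 76889 bp. The A630089N07Rik, Nnt and Slco3a1 members met the definition of a tandem repeat, with 93, 84 and 95 equal positions of 100. The Sfi1, St7 and Vmn1r2 members fell short of it, each with 77. Within 200 kb of the first assembled base of the autosomes there were 6 members on 6 chromosomes, or 4.13 per Mb (1.52 to 8.998), and 3 of them reached 10. The interval includes the 2.05 per Mb of all eligible sequence. Within 1000 kb there were 17 members, or 2.94 per Mb (1.71 to 4.70), and again 3 reached 10. Among all members 6.0% reached 10, and among all deposited peaks 8.66%.

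Motifs of 14 transcription factors were searched within 100 bp of each midpoint, on both strands, as fixed letters in which N is any base. C/EBP factors, which start and hold the adipocyte programme, were searched as TTGCNNAA. A match was in 100 members (5.36%, 4.38 to 6.48%), in 9.57% of windows without a peak, in 6.68% of these windows weighted to the GC of members, and in 9.67% of windows 1 kb to either side. The share was 5.40% in introns (4.37 to 6.58%). Against unweighted windows the members thus had fewer matches, and the weighted share lay above the upper bound of their interval. In the 949 members with no family, tandem repeat or run it did not, at 6.22% (4.77 to 7.95%) against 6.73%. The member near Slc2a1, the glucose transporter of most cells, at chr4:119044318-119044617 has such a match on the minus strand, in capitals.
Slc2a1 member: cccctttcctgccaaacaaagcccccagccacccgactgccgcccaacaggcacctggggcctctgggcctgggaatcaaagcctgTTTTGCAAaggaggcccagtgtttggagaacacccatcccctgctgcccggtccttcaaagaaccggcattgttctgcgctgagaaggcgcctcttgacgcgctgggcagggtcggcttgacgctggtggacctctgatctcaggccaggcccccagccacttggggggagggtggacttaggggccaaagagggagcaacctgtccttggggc

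SP1 and AP-2 motifs, made of G and C, were found more often than in windows, also after weighting for GC. SP1 (GGGCGG) was in 205 members (10.98%, 9.60 to 12.5%) against 1.34% of windows and 7.10% of GC-weighted windows. AP-2 (GCCNNNGGC) was in 195 (10.4%, 9.09 to 11.9%) against 2.39% and 6.82%. Both stayed above the weighted share in the 949 members with no family, tandem repeat or run. There SP1 was in 12.2% and AP-2 in 9.80%, against 7.27% and 6.91% of windows weighted to these. Introns were like the whole class, at 10.4% for each motif, and peaks within 3 kb of a TSS had 40.5% for SP1 and 25.5% for AP-2. The weighting covers GC only, while the SP1 letters hold a CpG. From 45% GC upward members were richer in CpG than windows of like GC. EBF (CCCNNGGGA), a factor of early adipocyte commitment, was in 4.82% (3.89 to 5.89%) against 1.75% of windows and 4.77% of weighted windows. The E-box CAGCTG was in 10.8% (9.40 to 12.3%) against 7.08% of windows and 11.8% of weighted windows. In the same 949 members it was in 16.1% (13.8 to 18.6%) against 11.7% of windows weighted to them.

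Over all members the other motifs were no commoner than in windows of like GC. AP-1 (TGANTCA) was in 3.86% of members (3.03 to 4.83%) against 5.51% of weighted windows, and TEAD (GGAATG) in 8.30% (7.09 to 9.65%) against 11.1%. In the 949 members with no family, tandem repeat or run both intervals held the weighted share. The values were 4.95% (3.66 to 6.53%) against 5.47% for AP-1 and 10.7% (8.85 to 12.9%) against 10.98% for TEAD. STAT (TTCNNNGAA), through which leptin signals, was in 4.82% (3.89 to 5.89%) against 5.13%. The glucocorticoid receptor, which dexamethasone in the cocktail activates, was searched as ACANNNTGT and found in 5.03% (4.09 to 6.13%) against 5.52%. GATA factors, searched as AGATAA, gave 8.62% against 8.87% and RUNX (TGTGGT) 12.7% against 13.3%. In the 949 members STAT was in 6.53% (5.05 to 8.30%) against 5.13%, and the glucocorticoid receptor motif in 5.90% (4.49 to 7.59%) against 5.51%. RUNX was in 13.9% (11.8 to 16.3%) of them against 13.1%, and GATA in 8.75% (7.03 to 10.7%) against 9.04%. Each of these intervals held the weighted share. CTCF (CCACNAGGG), which anchors chromatin loops, was in 7 members (0.375%, 0.151 to 0.771%) against 1.24%, and all 7 were among the 949 (0.738%, 0.297 to 1.51%, against 1.26%). The PPARG:RXR element, a pair of AGGNCA sites with 1 base between them, was in 5 members (0.268%, 0.0870 to 0.624%) against 0.392%, and the paired NFI site, TTGGC and GCCAA with 5 bases between, in none (upper bound 0.197%). Matches of different motifs can overlap, and a match of letters is a description, not a binding site.

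**Figure D5:**
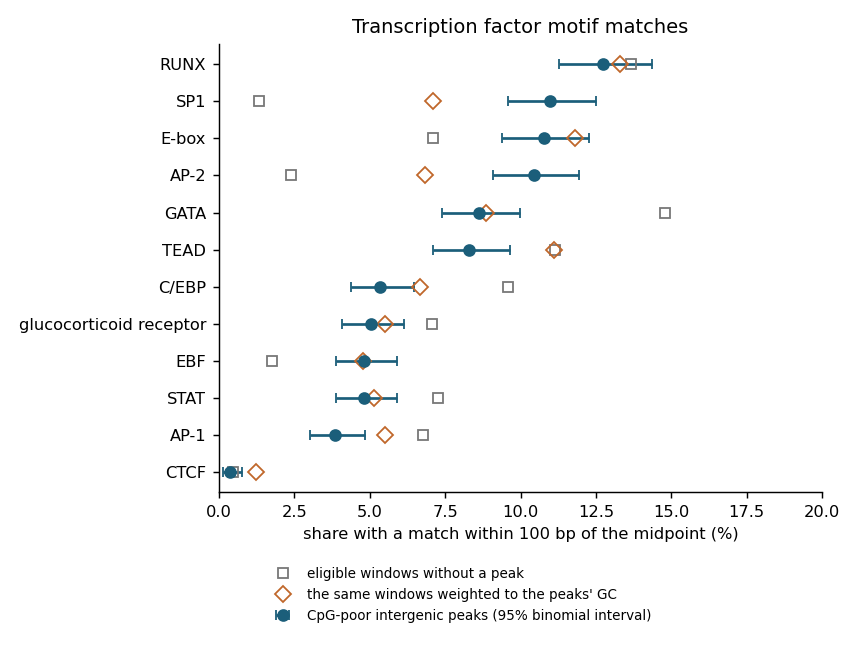
Share of regions in % with a motif match within 100 bp of the midpoint, for 12 of the 14 motifs: 1867 CpG-poor intergenic peaks with 95% binomial intervals (circles), eligible windows without a peak (squares), and the same windows weighted to the GC of the peaks (diamonds). Only SP1 and AP-2 have peak intervals that lie above both window values.

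The members lay slightly nearer to genes than eligible sequence without a peak. The median distance from a midpoint to the nearest TSS of any gene was 25986 bp (24135 to 27555 bp), against 28404 bp for windows and 15803 bp for CpG-rich intergenic peaks. Between 3 and 10 kb lay 20.9% of members (19.1 to 22.8%) and 20.4% of windows, between 10 and 50 kb 50.03% (47.7 to 52.3%) and 46.8%, and beyond 100 kb 12.6% (11.2 to 14.2%) and 14.6%. The nearest protein-coding TSS was a median of 94912 bp away, and the member lay upstream of it in 56.9% of cases (54.7 to 59.2%). The rule leaves out gene bodies, which lie downstream of their TSS, and the share was not computed for windows. No preference for either side can thus be read from it. RefSeq genes of the same build covered 197 members (10.6%). Other peaks were not close: the nearest lay a median of 77112 bp away (82214 bp for windows), with 6.37% of members within 10 kb of one (5.31 to 7.58%) against 7.55% of windows. Groups of at least 3 members with gaps of 50 kb or less numbered 5, each of 3 members. Those described here lay on chromosome 4 between 124236456 and 124292537 (Rragc, 3100002H09Rik), on chromosome 5 between 136685720 and 136714809 (Myl10), and on chromosome 9 between 61433859 and 61481520 (Tle3, a corepressor that takes part in fat cell formation). The −log10 p in the Tle3 group was between 6.21 and 7.34. By chromosome the density went from 1.57 members per Mb on chromosome 8 (1.23 to 1.97) to 2.76 on chromosome 4 (2.36 to 3.22).

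A RefSeq functional element, mostly an enhancer tested in mice, overlapped 6 members (0.321%, 0.118 to 0.698%), against 0.112% of windows, 0.469% of peaks in introns (0.203 to 0.922%) and 1.69% of CpG-rich intergenic peaks (0.462 to 4.26%). The strongest was chr13:116293747-116294228, with a −log10 p of 10.1, in the enhancer Isl1-F, 9364 bp downstream of the start of Isl1, a homeodomain factor of motor neurons and heart progenitors. It spans 2 annotated FOX binding sites. Developmental enhancers of the VISTA collection held chr4:155235594-155236083 (8.46), upstream of Ski by 13246 bp, chr13:37311613-37312143 (7.16), upstream of Ly86 by 33330 bp, and chr5:37901966-37902403 (6.21), upstream of Msx1 by 77601 bp. The other 2 were chr6:88117081-88117455 (6.04), in a tested fragment named for Gata2 but nearest to Rpn1, and chr7:142588389-142588763 (5.13), in a reporter fragment called HUC1 nearest to Mrpl23. All 6 had 1 match in the genome, themselves, and GC of 55.3% or more.

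A member lay within 100 kb of a TSS of 2353 of the 20807 autosomal protein-coding genes, or 11.3%. Among 17 transcription factors of adipocytes 4 had a member in reach (23.5%, 6.81 to 49.9%), an interval that includes the share of all genes. Cebpb, an early driver of adipogenesis, had a member at 76222 bp with a −log10 p of 8.13 and another at 66543 bp with 7.37, both nearer to Tmem189. Cebpa, which keeps the mature state, had a member at 37566 bp with 5.54, nearer to the amino acid transporter gene Slc7a10. The third, Zfp423, a marker of committed preadipocytes, had one 25356 bp upstream with 5.13.

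Of 24 genes of fat synthesis, storage and lipolysis 5 had a member (20.8%, 7.13 to 42.2%). The strongest, 14.9, was the Pmp2 member described above, which lies 45471 bp downstream of the start of Fabp4, the fatty acid carrier of fat cells. Cd36, a fatty acid transporter, had one at 94101 bp (7.72) and Agpat2, an enzyme of triglyceride synthesis, one at 62010 bp (7.54); the nearest genes to these were Sema3c and Notch1. Of 13 genes of insulin signalling and glucose use 4 had a member (30.8%, 9.09 to 61.4%). Irs2, an insulin receptor substrate, was the nearest gene to its member at 29818 bp downstream (7.34). Hk2, which phosphorylates glucose, had one 13790 bp upstream (6.49), and Slc2a1 that with the C/EBP match 64244 bp upstream (5.91).

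Genes of leptin and of other cells gave shares from 0% to 25%. Of 11 adipokine genes 2 had a member: Cfd, which encodes adipsin, at 43277 bp (5.32) and Nampt at 72686 bp (5.13). Of 8 genes of leptin signalling 1 did: Ptpn1, a phosphatase that restrains leptin and insulin receptors, 11831 bp upstream (8.85). The member nearest to Lep itself, chr6:26998086-26998460, was 2061947 bp away and nearest to Grm8. Of 25 neuronal adhesion and guidance genes 5 had a member (20%, 6.83 to 40.7%), the strongest at a −log10 p of 6.21 for each of Cdh10, Epha3 and Grm7. Among markers of other cell types a member lay near 3 of 12 endothelial genes (Tie1 32.4, Sox17 8.85, Cdh5 4.004), 3 of 14 genes of fibroblasts and preadipocytes (Ly6a 91.8, Pdgfra 9.39, Pi16 8.52) and none of 17 blood and immune genes (upper bound 19.5%). The members counted for Tie1 and Ly6a are the self-repeating Tmem125 region and the multi-copy Ly6c2 region above. Every interval of these 9 lists includes the 11.3% of all genes.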

How the data were processed

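The deposited peak list gives, for each of 14103 intervals, the −log10 p of the TET2 library over input, as the authors' peak caller wrote it. Per the submitters' processing notes the tools were bcl2fastq, Bowtie and MACS2 2.1.0 with build mm10; the methods name GRCm39. All peak ends fit the chromosome lengths and first assembled bases of GRCm38, which was used here; starts count from 1. The list has no summits, so midpoints were used. Input reads were not analysed here.

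The members, gene lists and tests were chosen with earlier results of these data known. The autosomes were cut into windows of 389 bp, and those that met the rule were the eligible sequence. Matches were found with blastn 2.17.0 (megablast, word size 28, at least 100 bp and 90% identity, at most 50 a chromosome, default masking of low-complexity sequence). Family copies matched a 150-bp seed over at least 80 bp at 75% identity or more. Tandem repeats needed 80 equal bases in a stretch of 100, at units of 2 to 200 bp, searched in every 20th window; this rule was chosen after seeing the data, as were the printed sequences. Other steps were written in Python 3.11.15 with scipy 1.17.1, pandas 2.3.3 and numpy 2.4.6, and plots were drawn with matplotlib 3.10.9. The steps for base composition and tandem repeats were tested on simulated sequence, and those for overlap and nearest position on small made-up cases. The remaining steps were not tested in this way. Named were the 10 strongest members, the 10 strongest with fewer than 5 matches, those in functional elements, groups within 50 kb, and up to 3 genes of each list with a member within 100 kb.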

Additional observations from a re-analysis of the deposited data

How the results depend on the processing

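Each main value was recomputed with 1 choice changed at a time, and 34 of 65 such values stayed near the reported one: within its interval, for the number of members at 1330 or more, and for the share of windows with a C/EBP match at 9.67% in flanking windows against 9.57%. Some outcomes were fixed by the change itself. Fewer members cannot raise the gene share, and a wider TSS limit must lengthen the TSS distance. A limit on −log10 p lowers the density, since the windows stay the same. The count of 34 is thus no measure of robustness. With members over 10 kb from any TSS the median distance to a TSS was 35103 bp and the share of genes with a member within 100 kb 6.45%; with RefSeq genes also left out the latter was 9.51%. Members that met both limits on composition numbered 981, with a median −log10 p of 5.13, 2.34% at 10 or more, GC of 42.6%, 1.17 per Mb, 0% in a functional element, a TSS distance of 30269 bp and a gene share of 4.88%. Under 50% masked bases these were 1069 members, GC of 49.1%, 1.402 per Mb, 22328 bp and 7.97%. At a −log10 p of at least 5, GC was 50%, density 1.64 per Mb and the gene share 9.42%. With fewer than 5 matches the median −log10 p was 5.65, the share at 10 or more 4.51%, GC 46.7% and the gene share 8.86%. An alternative chosen after seeing the data, members with no shared family, tandem repeat or run, left 949, with a median −log10 p of 5.89, 23756 bp and 6.93%. A C/EBP match was in 2.36% within 50 bp of the midpoint and in 11.6% over the whole peak, and the gene share was 5.85% at 50 kb and 21.9% at 200 kb.

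No paired analysis was possible because each group holds a single library and none of the results rests on a test. Without replicates or read totals, no value here says how far a second TET2 library would differ, and a −log10 p rises with depth as well as with enrichment. Nearest genes are by distance alone. A repeat-rich region can draw reads from its copies, which the peak list alone does not resolve.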
